A study of Mus musculus with 8 samples.

Results

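The vascular and haemogenic programme of the early embryo was followed through 33 genes in mouse embryos that lacked Isl1, a LIM homeodomain factor of second heart field progenitors. The set held 32 genes known from the endothelium, the endocardium and the blood-forming endothelium, and Esm1, which was added because its level differed between the genotypes in these same libraries. All 33 were among the 20701 gene symbols of the expression table, and all passed the filter on low counts that left 14075 genes for testing. The RNA came from dissected pharyngeal mesoderm and hearts of single C57BL/6 embryos at stage E8.75 (6 somites), 4 of genotype Isl1-/- and 4 wild-type, with no treatment in either group. The labels named no Cre or transgene for these embryos. The bulk tissue held endothelial cells beside myocardium, mesoderm, neural tissue and blood, so fewer cells of a type and less RNA per cell could not be told apart.

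Endothelial cells line blood vessels, and the endocardium is the endothelium of the heart tube. Their early progenitors are set apart by the ETS factor Etv2 and then held in their fate by Erg, Fli1 and the SOXF factors, while VEGF receptors and TIE receptors carry signals from the surrounding tissue. Haemogenic endothelium, which uses Tal1, Lyl1, Gata2 and Runx1, is the subset that gives rise to blood cells. Esm1 (endocan) is a secreted proteoglycan that is used as a marker of endothelial tip cells, the leading cells of a sprouting vessel, and it responds to VEGF.

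Isl1 itself was measured first as a check of the genotypes, in CPM (read counts per 1e6 counted reads, scaled with TMM factors). Wild-type embryos 1 to 4 had 9.72, 9.76, 26.9 and 23.3 CPM, and knockout embryos 1 to 4 had 2.32, 2.16, 1.78 and 2.40 CPM. Values below follow this order of embryos. These groups did not overlap, although wild-type embryos 1 and 2 were lower than the other two. Isl1 fell by 3.0 on the log2 scale (SE 0.36, edgeR quasi-likelihood test, Benjamini-Hochberg adjusted p = 0.0041). Total counts over the entries used were 23480456 to 26153048 in the wild type and 18916449 to 25047024 in the knockout. Per the labels, 7 libraries were made from polyA RNA, whereas that of knockout embryo 2 was labelled total RNA.

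The defining endothelial markers were present in every embryo. Levels between genes were compared per transcript length, as the deposited RPKM values (reads per kilobase of transcript and 1e6 counted reads). Egfl7, a secreted endothelial factor, was the highest at 18.0 ± 2.33 RPKM in the wild type (SD, n = 4). It was followed by the calcitonin-receptor partner Ramp2 at 15.2 ± 2.17 RPKM, by VE-cadherin (Cdh5) at 13.6 ± 2.69 RPKM, by the VEGF receptor Kdr at 11.9 ± 2.09 RPKM and by the diaphragm protein Plvap at 11.7 ± 1.40 RPKM. These 5 neighbours in the order had SD intervals that touched, so their order was not resolved. The transcription factors lay lower, with Etv2 the highest of the 6 at 3.68 ± 0.455 RPKM and Sox17 the lowest at 0.942 ± 0.365 RPKM. Robo4 at 0.203 ± 0.0357 RPKM, Runx1 at 0.187 ± 0.120 RPKM and Esm1 at 0.115 ± 0.0230 RPKM closed the list.

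Along this order of levels, 2 of 32 neighbouring pairs had wild-type SD intervals that did not touch. Cd34, at 7.11 ± 0.867 RPKM, stood above Pecam1, at 5.45 ± 0.436 RPKM. Clec14a, at 0.838 ± 0.138 RPKM, stood above Robo4. In the knockout the first 4 places were held by the same genes in the same order, Egfl7 at 18.3 ± 1.37 RPKM, Ramp2 at 15.6 ± 0.969 RPKM, Cdh5 at 11.8 ± 1.72 RPKM and Kdr at 11.2 ± 2.17 RPKM. Esm1 was last in the wild type, at place 33, and at place 31 in the knockout, with 0.575 ± 0.225 RPKM.

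**Figure D1:**
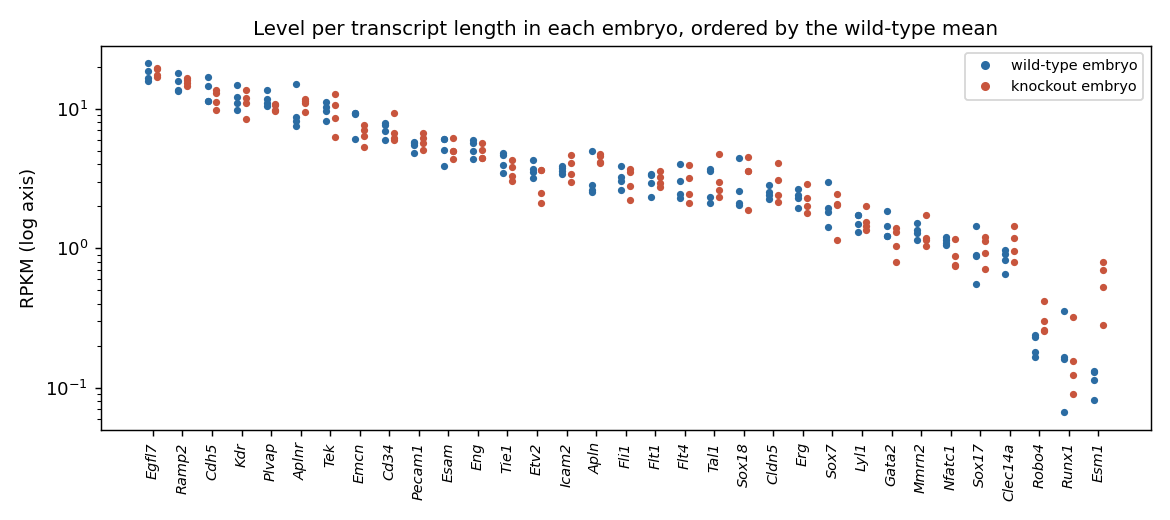
Level of each of the 33 genes in RPKM (vertical, log axis) in each of 4 wild-type and 4 knockout embryos, with the genes ordered along the horizontal axis by the wild-type mean. Points of both genotypes overlap along the whole order except at Robo4 and Esm1, where every knockout point lies above every wild-type point.

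Across genotypes, the question was whether the endothelial and blood-forming genes followed the loss of Isl1. Of the 32 genes other than Esm1, none passed an adjusted p of 0.05 in the edgeR quasi-likelihood test in either direction. Over all 14075 genes tested, 0.867% were called lower and 0.107% higher by this rule. DESeq2 called none of the 32 either, where 3.53% of 13246 genes were called lower and 1.82% higher. With the second rule, a log2 fold change beyond 0.58 with an unadjusted p under 0.05 (the thresholds named in the study's methods), again none of the 32 was called, against 3.93% of all genes. An unadjusted p under 0.05 alone was reached by 4 of the 32 (12.5%), against 17.4% of all genes. Of those, Emcn, Plvap and Nfatc1 were lower in the knockout (9.38% of the members, 10.1% of all genes) and Robo4 was higher (3.12% of the members, 7.37% of all genes). The count of 4 became 0 without wild-type embryo 1 and 2 without knockout embryo 1 or knockout embryo 3 (12.8% and 16.0% of all genes). It was also 2 with library totals, with a replicate block and with limma on log2(RPKM + 0.1), where the shares over all genes were 17.6%, 14.7% and 17.7%. With a yolk sac endoderm score as covariate it was 6, against 19.8% of all genes. Without wild-type embryo 1 the share over all genes was 11.8%, and the 4 fold changes kept their direction, at -0.37 (Emcn), -0.24 (Plvap), -0.38 (Nfatc1) and 0.50 (Robo4). The values of the 2 genotypes did not overlap for 1 of the 32, Robo4, or 3.12%, against 10.3% of all genes.

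The fold changes of the 32 genes were small in both directions. They ran from -0.42 for Emcn to 0.54 for Robo4 on the log2 scale (SE 0.098 to 0.51), with 22 below 0 and 10 above 0. Their median was -0.087, that of the 25 endothelial genes -0.097 and that of the 4 haemogenic genes -0.10, beside 0.0063 over all genes tested. The lower ends of their 95% confidence intervals reached down to -1.31, for Runx1, and the upper ends up to 1.07, for Robo4. A difference of that size for those genes was not excluded at this number of embryos. For Plvap, with the narrowest interval, the bounds were -0.47 and -0.034.

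**Figure D2:**
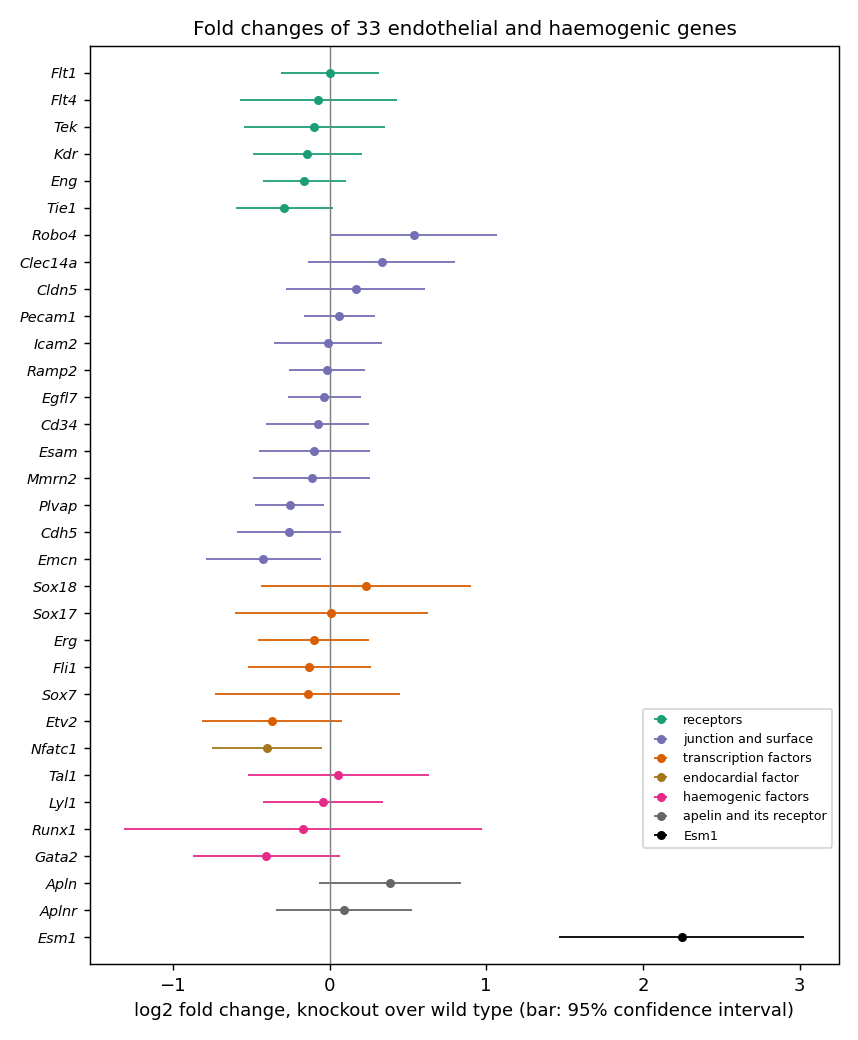
Log2 fold change of each of the 33 genes, knockout over wild type (horizontal), with its 95% confidence interval from edgeR as a bar and the genes grouped by role. Esm1 lies at 2.25, while the other 32 points lie between -0.42 and 0.54. Esm1 was chosen for its difference in these same libraries, so its bar is a description and not a test.

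Among the receptors, Kdr (VEGFR2), the main VEGF receptor of endothelial progenitors, had the highest level per length. The wild-type embryos had 115, 93.2, 136 and 99.2 CPM, and the knockout embryos had 74.3, 109, 98.0 and 120 CPM. The genotypes overlapped widely, and the log2 fold change was -0.14 (SE 0.16, edgeR adjusted p = 0.681), with -0.24 to -0.020 when 1 embryo was left out. The other receptors were the VEGF decoy receptor Flt1, the lymphatic and venous VEGF receptor Flt4, the angiopoietin receptor Tek, its partner Tie1 and the TGF-beta co-receptor Eng. Their fold changes lay between -0.29 (Tie1) and 0.0011 (Flt1), so 5 of the 6 receptors were below 0 and none passed the test.

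Among the 13 junction, surface and secreted genes, Egfl7 had the highest level. Its values were 44.3, 40.2, 49.6 and 36.6 CPM in the wild type and 37.9, 45.5, 40.0 and 43.6 CPM in the knockout. The knockout values lay inside the wild-type range, and the log2 fold change was -0.033 (SE 0.11, edgeR adjusted p = 0.899). Plvap, which forms the diaphragms of fenestrae and caveolae, stood at 41.1, 38.7, 46.9 and 35.3 CPM in the wild type and at 31.7, 36.7, 32.7 and 34.8 CPM in the knockout. Of its knockout values, 3 were below every wild-type value. Its log2 fold change was -0.25 (SE 0.098, edgeR adjusted p = 0.231). Emcn and Robo4 are described next, and the remaining 9 genes had fold changes between -0.26 and 0.33 with none past the test. The ends of that range were the adherens junction gene Cdh5 (SE 0.15) and Clec14a (SE 0.21), a C-type lectin of the vessel wall. The adhesion molecule Pecam1 was at 0.062 (SE 0.10), the tight junction gene Cldn5 at 0.17 (SE 0.20) and the junction protein Esam at -0.098 (SE 0.16). The adhesion ligand Icam2 was at -0.01 (SE 0.15), the sialomucin Cd34 at -0.076 (SE 0.15), the matrix gene Mmrn2 at -0.11 (SE 0.17) and Ramp2 at -0.017 (SE 0.11).

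Emcn (endomucin), a sialomucin of venous, capillary and endocardial endothelium, gave the lowest fold change of the set. The wild-type embryos had 23.4, 23.4, 14.96 and 22.5 CPM, and the knockout embryos had 15, 12.8, 18.5 and 16.6 CPM. Wild-type embryo 3 alone fell within the knockout range, and the other 3 lay above every knockout embryo. With all 8 embryos the log2 fold change was -0.42 (SE 0.16, edgeR adjusted p = 0.229). Without wild-type embryo 3 it was -0.56 (SE 0.12, edgeR adjusted p = 0.0469). Leaving that embryo out also raised the share of all genes called lower from 0.867% to 2.71%. Wild-type embryo 3 also had the lowest summed erythroid level of the 8 embryos, 412 CPM against 1241 to 2494 CPM in the other wild-type embryos, and the lowest summed cardiomyocyte level of the wild type, 3290 CPM against 4530 to 4925 CPM. The part of these levels in the Emcn values was not tested.

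Robo4, a roundabout receptor that steadies the vessel wall, was the one gene of the 32 with separate groups. It stood at 1.21, 1.55, 1.56 and 1.06 CPM in the wild type and at 1.62, 1.95, 1.62 and 2.64 CPM in the knockout. The lowest knockout embryo was above the highest wild-type embryo by a small margin, and the values rested on 28 to 54 reads per library. Its log2 fold change was 0.54 (SE 0.24, edgeR adjusted p = 0.279). It passed the threshold on fold change, with an unadjusted p under 0.05, when wild-type embryo 2, wild-type embryo 3, knockout embryo 1 or knockout embryo 3 was left out.

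The stretches just before the start of transcription are shown for Emcn and Robo4, the genes at the ends of the range of fold changes, and for Esm1. They were taken from RefSeq (GRCm38.p6), whose table held windows for 20 of the 33 genes, and each is the 250 bases before the start, written 5′ to 3′ on the strand of the gene. Capitals mark the letters CAGGAA or, on the other strand, TTCCTG, which hold the core that ETS factors such as Etv2, Erg and Fli1 recognise.
Emcn, chr3:137340828-137341077, plus strand: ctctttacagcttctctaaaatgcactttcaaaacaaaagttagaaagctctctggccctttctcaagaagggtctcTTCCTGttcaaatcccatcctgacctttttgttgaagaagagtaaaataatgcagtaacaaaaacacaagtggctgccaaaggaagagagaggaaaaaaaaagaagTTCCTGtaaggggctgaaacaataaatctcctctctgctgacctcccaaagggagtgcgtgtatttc
Robo4, chr9:37401722-37401971, plus strand: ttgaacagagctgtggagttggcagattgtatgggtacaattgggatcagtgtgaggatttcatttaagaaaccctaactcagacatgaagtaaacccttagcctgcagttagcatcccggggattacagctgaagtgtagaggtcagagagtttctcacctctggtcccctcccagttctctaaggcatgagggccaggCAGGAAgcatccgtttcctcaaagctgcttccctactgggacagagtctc
Esm1, chr13:113209409-113209658, plus strand: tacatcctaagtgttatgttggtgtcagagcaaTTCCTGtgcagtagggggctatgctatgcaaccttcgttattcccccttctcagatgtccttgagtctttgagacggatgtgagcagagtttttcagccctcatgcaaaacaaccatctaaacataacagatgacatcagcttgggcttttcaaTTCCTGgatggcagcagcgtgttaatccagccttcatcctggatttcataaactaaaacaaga
Emcn held 2 matches, 173 and 67 bases before the start, Robo4 held 1, and Esm1 held 2, at 217 and 63 bases. Of the 20 genes with a window, 13 held the letters, in 14 of 27 windows (51.9%), against 25.7% of all 32851 windows of the same length. The letters CTAATG on either strand, a homeodomain core in the form known for Isl1, were in 2 of the 27 windows (7.41%), against 6.36% of all windows. These were windows of Apln and Tie1. The forkhead core TGTTTA, again on either strand, was found in 2 of the 27 windows (7.41%), those of Clec14a and Esm1, against 12% of all windows. A match of letters is not a bound site. The 3 genes shown share the ETS letters, while their fold changes in the knockout were -0.42, 0.54 and 2.25.

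Among the 6 endothelial transcription factors, Etv2, which starts the endothelial and blood programme, had the highest level per length. It was at 6.38, 6.74, 7.63 and 5.59 CPM in the wild type and at 4.21, 6.38, 3.66 and 6.17 CPM in the knockout. Knockout embryos 1 and 3 were below every wild-type embryo, and the other two were within the wild-type range. This gave a log2 fold change of -0.36 (SE 0.20, edgeR adjusted p = 0.382). The ETS factors Erg and Fli1 and the SOXF factors Sox7, Sox17 and Sox18 had fold changes between -0.14 (Sox7) and 0.24 (Sox18), with edgeR adjusted p from 0.727 to 0.986.

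The SOXF factors varied more between embryos than between genotypes. Sox18 was at 7.22, 5.77, 12.1 and 5.70 CPM in the wild type and at 9.51, 9.66, 5.07 and 11.99 CPM in the knockout. Wild-type embryo 3 and knockout embryo 4 were the highest of their groups, and knockout embryo 3 was the lowest of all. After the genotype mean was taken off each embryo, Sox7 followed Sox18 with r = 0.97 and Sox17 with r = 0.93 over the 8 embryos. Erg and Fli1 followed each other with r = 0.92. These correlations are descriptions over points that share library, depth and dissection.

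Nfatc1, a transcription factor of the endocardium that is needed for valve formation, was at 9.60, 9.09, 9.86 and 8.48 CPM in the wild type. In the knockout it was at 5.80, 7.09, 6.07 and 9.15 CPM. Knockout embryo 4 was inside the wild-type range and the other 3 were below it. The log2 fold change was -0.40 (SE 0.16, edgeR adjusted p = 0.235). With the longest transcript entry in place of the most counted one it was -0.26 (edgeR adjusted p = 0.446), and Nfatc1 was then not among the genes with an unadjusted p under 0.05. Npr3, another endocardial marker, had a fold change of -0.080 (SE 0.12, edgeR adjusted p = 0.770). In a list of 14 endocardial genes that holds both, 11 fold changes were below 0 and 3 above, with a median of -0.18. At an unadjusted p under 0.05 (edgeR), 5 of the 14 were lower and none higher, against 10.1% and 7.37% of all genes. The 5 were Nfatc1 itself, Gata5, Smad6, Klf2 and Klf4. Of these, Klf2 and Klf4 were high in wild-type embryos 1 and 2 alone, as described below.

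None of the 4 haemogenic factors passed the test, and for each the ranges of the 2 genotypes overlapped. Tal1, a bHLH factor required for all blood lineages, was at 27.4, 15.7, 26.0 and 16.4 CPM in the wild type and at 18.0, 33.5, 16.4 and 20.8 CPM in the knockout. Both groups spanned nearly the same range, and the log2 fold change was 0.056 (SE 0.26, edgeR adjusted p = 0.928). Its relative Lyl1 was at 5.42, 4.12, 5.27 and 4.49 CPM in the wild type and at 3.94, 6.01, 4.29 and 4.50 CPM in the knockout. Here too the ranges overlapped, with a log2 fold change of -0.042 (SE 0.17, edgeR adjusted p = 0.920). Within genotype Tal1 and Lyl1 moved together from embryo to embryo (r = 0.95 over 8 embryos).

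Gata2, which maintains early blood progenitors, was at 6.84, 8.203, 10.3 and 6.65 CPM in the wild type and at 4.21, 7.54, 5.54 and 6.90 CPM in the knockout. Knockout embryos 1 and 3 were below every wild-type embryo. The log2 fold change was -0.40 (SE 0.21, edgeR adjusted p = 0.358). Runx1, the factor of the transition from endothelium to blood, was at 2.003, 2.08, 4.30 and 0.798 CPM in the wild type and at 1.04, 3.81, 1.46 and 1.81 CPM in the knockout. It rested on 21 to 102 reads per library, and its spread was the widest of the set. Its log2 fold change was -0.17 (SE 0.51, edgeR adjusted p = 0.893), with an interval of -1.31 to 0.97.

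Knockout embryo 2, the library labelled total RNA, was the highest of the knockout for all 4 haemogenic factors. Without it their median log2 fold change was -0.37 in place of -0.10, with Runx1 at -0.67, Gata2 at -0.52, Tal1 at -0.21 and Lyl1 at -0.18. None passed the test without it (edgeR adjusted p 0.259 to 0.657). Whether the kind of RNA had a part in these values was not tested.

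Wild-type embryo 3 and knockout embryo 2, the highest for Runx1, also had high levels of yolk sac endoderm genes such as Afp and Trf. The summed level of the 12 yolk sac endoderm genes was 4765 CPM in wild-type embryo 3 and 6914 CPM in knockout embryo 2. It was 549 to 2770 CPM in the other wild-type embryos, and 434, 4861 and 734 CPM in knockout embryos 1, 3 and 4. None of the 12 passed the test between genotypes (median log2 fold change 0.43). With a score of these genes as covariate, a fit added after the values were seen, the log2 fold change of Runx1 was -0.14 (edgeR adjusted p = 0.841), against -0.17 without it.

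Apelin (Apln), a peptide made by sprouting endothelium, and its receptor Aplnr, which marks early mesoderm and veins, lay above 0. Apln was at 13.8, 15.7, 26.6 and 13.7 CPM in the wild type and at 21.3, 24.9, 24.0 and 21.2 CPM in the knockout. The knockout embryos were close together and above 3 wild-type embryos, while wild-type embryo 3 exceeded them all. Its log2 fold change was 0.39 (SE 0.20, edgeR adjusted p = 0.361) with all embryos. Without wild-type embryo 3 it was 0.67 (SE 0.10, edgeR adjusted p = 0.0138). In that setting 0.748% of all genes were called higher, against 0.107% with all embryos.

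Aplnr was at 46.8, 51.4, 91.5 and 51.9 CPM in the wild type and at 64.4, 68.3, 56.4 and 68.1 CPM in the knockout. Again wild-type embryo 3 was the highest of all, and the other 3 lay below every knockout embryo. This gave a log2 fold change of 0.091 (SE 0.19, edgeR adjusted p = 0.842). Apln and Aplnr followed each other within genotype (r = 0.89 over 8 embryos), and wild-type embryo 3 was the farthest from its group mean for both.

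**Figure D3:**
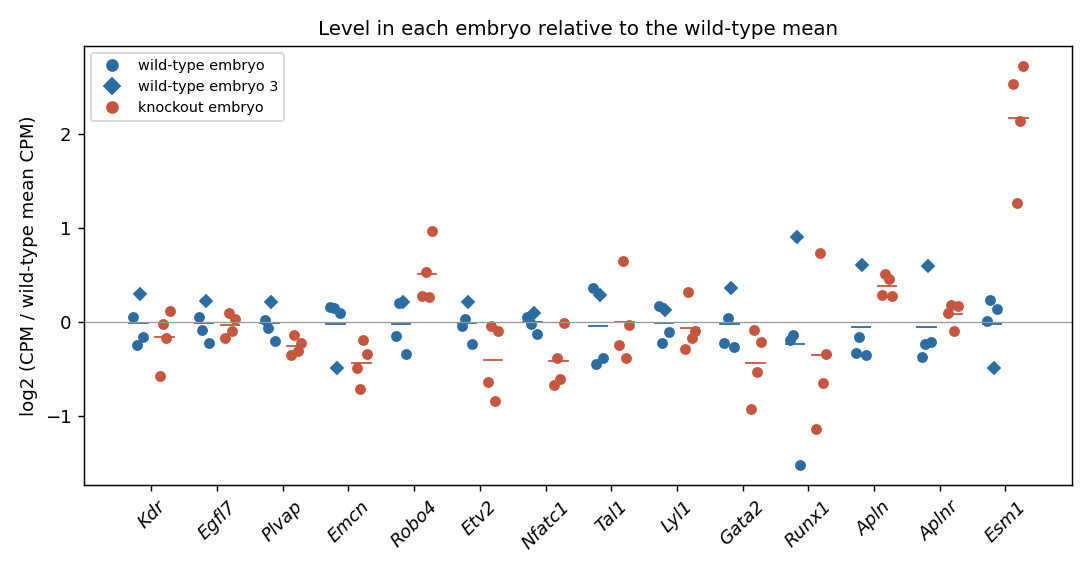
Level of 14 of the genes in each embryo as log2 of CPM over the wild-type mean CPM (vertical), with wild-type embryos in blue, knockout embryos in red and short lines at the mean of the plotted log2 values. Wild-type embryo 3 (diamond) stands apart for Emcn, Apln and Aplnr, and every knockout point lies above every wild-type point for Robo4 and Esm1.

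Esm1 stood apart from the vessel genes around it. The wild-type embryos had 0.417, 0.488, 0.295 and 0.456 CPM, and the knockout embryos had 2.40, 0.995, 1.83 and 2.74 CPM. The groups did not overlap, and knockout embryo 2 was the lowest of the knockout. Few reads lay behind these levels, 7 to 12 in a wild-type library and 24 to 62 in a knockout library. The log2 fold change was 2.25 (SE 0.35), which is a description, since Esm1 was chosen for this difference. The gene lies on chromosome 13, from 113999867 to 114008306 on the plus strand of mm9, inside the span of Gzmk on the opposite strand. Reads were counted without regard to strand, and Gzmk had 0 counts in all 8 libraries.

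The level of Esm1 was also set against the summed endothelial level of each library. Since that sum differed little between genotypes, the ratio restates the difference for which Esm1 was chosen. The summed level of 10 pan-endothelial genes (Pecam1, Cdh5, Esam, Cldn5, Icam2, Tie1, Tek, Kdr, Robo4 and Clec14a) was 380 ± 46.0 CPM in the wild type and 348 ± 58.2 CPM in the knockout (SD, n = 4). Per 1000 CPM of these genes, Esm1 was at 1.03, 1.39, 0.687 and 1.38 CPM in the wild type and at 9.08, 2.54, 5.21 and 7.15 CPM in the knockout. On the log2 scale this ratio averaged -9.86 ± 0.478 over the wild-type embryos and -7.53 ± 0.797 over the knockout embryos, a difference of 2.33. With all 25 endothelial genes below the line the difference was 2.31. Knockout embryo 2, the library labelled total RNA, had the lowest ratio of the knockout, and without it the difference was 2.69.

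**Figure D4:**
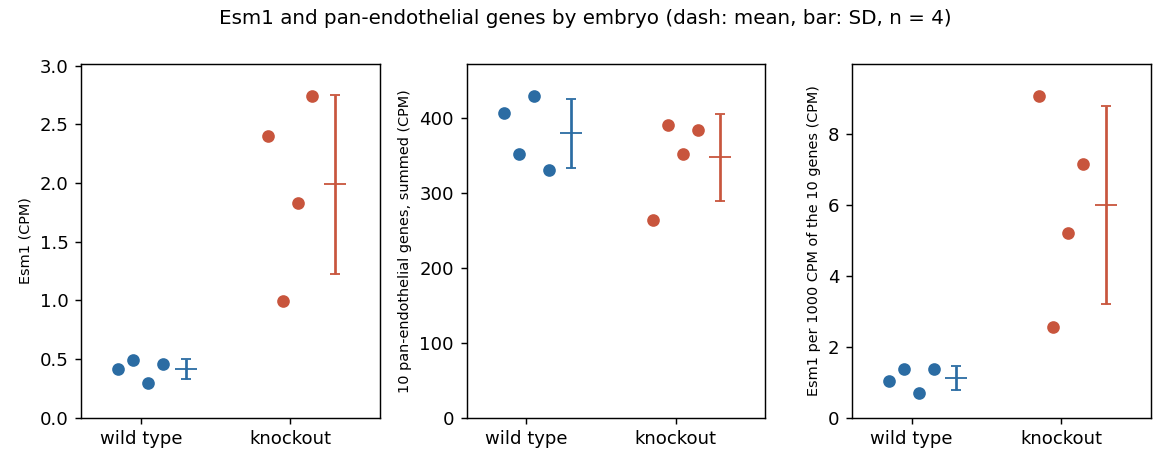
Esm1 in CPM, the summed CPM of 10 pan-endothelial genes, and Esm1 per 1000 CPM of those genes, for each of 4 wild-type and 4 knockout embryos, with the mean (dash) and SD (bar). The summed endothelial level overlaps between genotypes, whereas Esm1 and its ratio do not.

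From embryo to embryo within genotype, the highest correlations of Esm1 over the 8 embryos were with Emcn (r = 0.64), Cd34 (r = 0.55) and Mmrn2 (r = 0.40). Those below 0 were larger in size, with Lyl1 at r = -0.81, Tal1 at r = -0.71, Runx1 at r = -0.70 and Tek at r = -0.65. Against the summary of the yolk sac endoderm genes Esm1 had r = -0.78, against the cardiomyocyte genes r = 0.61 and against the erythroid genes r = -0.26. Knockout embryo 2, the library labelled total RNA, lay farthest from its genotype mean for Esm1, at -0.85 on the log2 scale. For Lyl1, Tal1, Runx1 and Tek it lay above its genotype mean, by 0.37, 0.65, 1.04 and 0.49. The correlations without this library were not computed. With so few reads behind Esm1 these correlations are descriptions only, and they rest on the same 8 libraries. The mean of the 10 pan-endothelial genes, without the gene itself, correlated with each of the 10 at r = 0.24 (Clec14a) to r = 0.87 (Kdr), with Cdh5 at r = 0.81 and Tek at r = 0.53, and with Esm1 at r = -0.32. The same mean correlated with the erythroid genes at r = 0.24, with the cardiomyocyte genes at r = -0.36 and with the yolk sac endoderm genes at r = 0.50.

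Esm1 and Isl1 lie on the same chromosome, 3.09 Mb apart from midpoint to midpoint, and the gap between them is 3.08 Mb. The tested genes around Isl1 were therefore counted, with Isl1 and Esm1 left out. Of 26 such genes within 5 Mb, none passed an adjusted p of 0.05 (edgeR, lowest adjusted p 0.0832, for Dhx29), and 8 (30.8%) had an unadjusted p under 0.05, of which 7 were lower in the knockout. Over all genes that share was 17.4%. Their median log2 fold change was -0.093. The tested neighbours of Esm1, the peroxidase Gpx8 and the sorting nexin Snx18, had fold changes of 0.029 (SE 0.19, edgeR adjusted p = 0.951) and 0.089 (SE 0.086, edgeR adjusted p = 0.634).

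**Figure D5:**
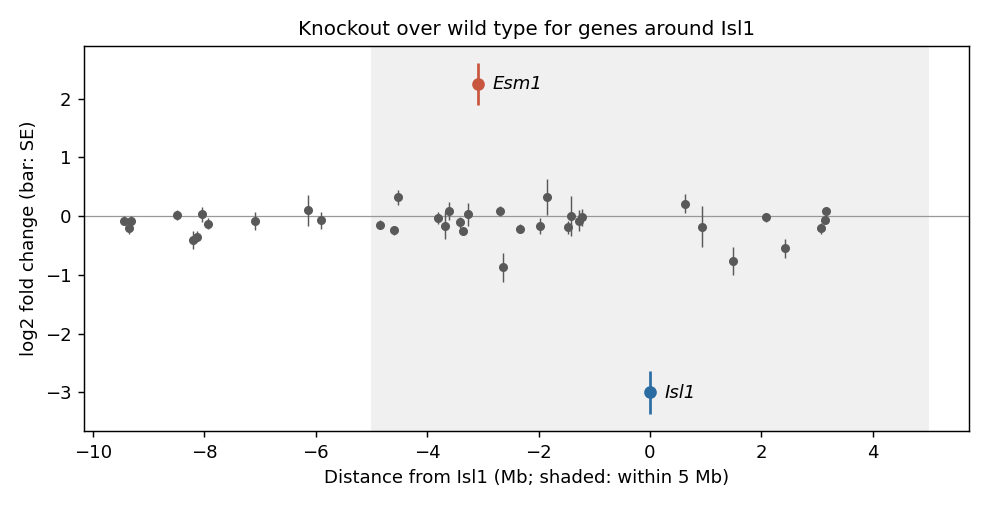
Log2 fold change, knockout over wild type, with SE bars (vertical) against the distance from Isl1 in Mb (horizontal) for the tested genes within 10 Mb, with the 5 Mb window shaded. Esm1 lies at 2.25 and Isl1 at -3.0, while neighbouring genes lie near 0.

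The genes that act on or with these 33 were examined as lists. Of 11 measured VEGF and angiopoietin ligands and co-receptors, 1 was lower and none higher at an adjusted p of 0.05. That gene, Angpt1, the agonist of Tek that is made by mesenchyme and myocardium, was at 57.5, 60.1, 44.4 and 56.5 CPM in the wild type and at 36.2, 37.4, 39.1 and 36.3 CPM in the knockout. The groups did not overlap, and Angpt1 fell by 0.55 on the log2 scale (SE 0.098, edgeR adjusted p = 0.0309). The call was lost without 7 of the 8 embryos in turn (edgeR adjusted p up to 0.124) and kept without wild-type embryo 3, while the log2 fold change stayed between -0.64 and -0.50. Cardiomyocyte genes moved the same way, with 12 of 15 called lower (median log2 fold change -0.96), and their part in the Angpt1 value was not tested. The largest fold changes in size in that list were those of the Tek antagonist Angpt2, at -0.65 (SE 0.24, edgeR adjusted p = 0.211), and of the Flt1 ligand Pgf, at -0.56 (SE 0.19, edgeR adjusted p = 0.182). At an unadjusted p under 0.05 (edgeR), 3 of the 11 were lower and 2 higher, against 10.1% and 7.37% of all genes. Those higher were Vegfa, at 0.23 (SE 0.090, edgeR adjusted p = 0.233), and Vegfb, at 0.34 (SE 0.084, edgeR adjusted p = 0.0887). Vegfb had separate groups, at 28.1 to 32.2 CPM in the wild type and 35.8 to 42.5 CPM in the knockout.

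Of 15 tip cell genes, which include Esm1's usual companions in sprouting vessels, none passed the test, and their median log2 fold change was 0.034. Kcne3, a potassium channel subunit, came nearest: it was at 4.38, 5.32, 3.92 and 4.26 CPM in the wild type and at 8.93, 6.30, 8.21 and 12.1 CPM in the knockout. The groups were separate, with a fold change of 0.99 (SE 0.20, edgeR adjusted p = 0.0549). At an unadjusted p under 0.05 (edgeR), 2 of the 15 were higher and 2 lower, against 7.37% and 10.1% of all genes. The higher ones were Kcne3 and Pdgfb, the latter at 0.55 (SE 0.18). The lower ones were Angpt2, at -0.65 (SE 0.24), and Unc5b, at -0.33 (SE 0.13). Dll4, the Notch ligand of tip cells, had a fold change of 0.034 (SE 0.19, edgeR adjusted p = 0.943). Among 18 genes of the hypoxia and VEGF response, again none passed the test (lowest edgeR adjusted p 0.0772). At an unadjusted p under 0.05 (edgeR), 7 of the 18 were higher and 3 lower, against 7.37% and 10.1% of all genes. The stress-response gene Ddit4 was at 38.3, 71.6, 46.7 and 29.3 CPM in the wild type and at 121, 68.7, 109 and 111 CPM in the knockout. Knockout embryo 2 was inside the wild-type range and the other 3 were above it, with a fold change of 1.14 (SE 0.26, edgeR adjusted p = 0.0784). Others on the higher side at an unadjusted p under 0.05 were Car9, Ankrd37, Ndrg1, Bnip3, Pdk1 and Vegfa, with fold changes of 0.23 to 0.78. On the lower side, Dusp5 had the lowest adjusted p of the list, with a fold change of -0.73 (SE 0.17, edgeR adjusted p = 0.0772). It was at 24.7, 30.0, 18.1 and 18.4 CPM in the wild type and at 14.6, 14.5, 13.75 and 11.9 CPM in the knockout, so its groups did not overlap. Egr3, also lower, was at 21.4 and 24.7 CPM in wild-type embryos 1 and 2 but at 0.245 to 0.941 CPM in the other 6 embryos. Nr4a1 showed the same split, at 33.3 and 36.1 CPM in those 2 embryos and at 7.17 to 12.2 CPM in the rest.

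Of 16 arterial, venous and Notch genes, none was called. The arterial connexins Gja5 and Gja4 had the largest fold changes in size, -0.59 (SE 0.18, edgeR adjusted p = 0.143) and -0.57 (SE 0.29, edgeR adjusted p = 0.340). Of 14 endocardial genes, Gata5, a GATA factor of endocardium and myocardium, was called. It was at 38.2, 42.9, 50.2 and 38.4 CPM in the wild type and at 19.4, 20.1, 24.5 and 19.4 CPM in the knockout. Every knockout embryo was below every wild-type embryo, and Gata5 fell by 1.03 on the log2 scale (SE 0.12, edgeR adjusted p = 0.0032). Smad6 also had separate groups, at 18.5 to 21.2 CPM in the wild type and 13.9 to 15.8 CPM in the knockout. Its fold change was -0.42 (SE 0.09, edgeR adjusted p = 0.0638). The flow-responsive factors Klf2 and Klf4 had the largest fold changes in size, -2.43 (SE 0.59, edgeR adjusted p = 0.0866) and -2.17 (SE 0.71, edgeR adjusted p = 0.171). Both were highest in wild-type embryos 1 and 2, where Klf2 was at 13.1 and 20.1 CPM against 1.28 to 4.64 CPM in the other 6. Without these embryos, with 2 wild-type libraries left, none of the 32 genes reached an unadjusted p under 0.05, and the genes called in all fell from 137 to 22. The log2 fold changes were then -0.27 for Plvap, 0.58 for Robo4, -0.38 for Nfatc1 and -0.26 for Emcn.

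Of 14 blood progenitor genes, 11 could be tested and none was called. The largest fold changes in size were those of the homeobox gene Hhex, at -0.65 (SE 0.16, edgeR adjusted p = 0.0930), and of Kit, the stem cell factor receptor, at 0.37 (SE 0.095, edgeR adjusted p = 0.0969). Gfi1, which marks the emergence of blood from endothelium, had 2 to 8 reads per library, and the pan-leukocyte gene Ptprc had 0 to 3. The 13 measured primitive erythroid genes all had fold changes above 0 (median 0.48) and none passed the test, with summed levels of 412 to 2494 CPM in the wild type and 1325 to 3292 CPM in the knockout.

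Macrophage genes gave summed levels of 9.66 to 24.4 CPM in the wild type and 9.43 to 24.3 CPM in the knockout. Of 10 measured genes, 4 passed the filter on low counts. Tyrobp, C1qa, C1qb and Aif1 were at 0 to 2 reads in every library. Csf1r had 13 to 84 reads, Mrc1 had 92 to 409 and Cd68 had 55 to 123. Cd68 was lower in every knockout embryo than in every wild-type embryo, with a fold change of -0.58 (SE 0.15, edgeR adjusted p = 0.0940). Of the 10 neural crest and neural genes, none was called, and their summed levels were 627 to 688 CPM in the wild type and 655 to 772 CPM in the knockout.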

How the data were processed

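RNA was measured in 8 libraries, each from 1 embryo. Per the labels and the study's methods, the authors mapped reads to mm9 with STAR (intron length 20 to 500000) and used HOMER to count them on both strands over RefSeq exons, so the deposited counts were raw read counts per transcript. RPKM values, which the authors computed in edgeR per kilobase and per 1e6 counted reads, were deposited beside a length column in bases. Columns holding the authors' own comparison (fold changes and p-values) were not used. Versions of STAR, HOMER and edgeR as the authors ran them were not given in the sources used here.

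The table held 31507 transcript entries of 20701 symbols, 5808 with several entries; the entry with the highest summed count was kept per symbol. Genes were filtered with filterByExpr, scaled with TMM and tested with edgeR 4.0.16 (quasi-likelihood, R 4.3.3) with Benjamini-Hochberg adjustment over all 14075 genes. The procedure was tested on simulated data. Genes printed with values in every embryo were Esm1, members with an unadjusted p under 0.05, the haemogenic, apelin and endocardial members, and the highest member by RPKM of each other role. Of the other lists, called genes and up to 2 with the largest absolute fold change were named. Npr3, Dll4, Gfi1, Ptprc, Nr4a1, Sox18, Smad6, Dusp5, Vegfb and the other markers given were chosen after their values were seen. The members and lists were chosen with earlier results of these data known. Alternatives were DESeq2 1.42.0, its size factors, library totals, no filter, a replicate block, the longest transcript entry, limma 3.58.1 on log2(RPKM + 1) and log2(RPKM + 0.1), each embryo left out, a 10 Mb window and another denominator for Esm1. A yolk sac endoderm score as covariate and leaving out wild-type embryos 1 and 2 together were added after seeing the data.

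Egfl7, Eng, Plvap, Lyl1, Ramp2, Cd34 and Runx1 overlap other annotated genes, and unstranded counting cannot separate the reads of such pairs. Intervals and SEs cover the spread between these embryos.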

Additional observations from a re-analysis of the deposited data

Results flagged for a closer look

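In 3 of 66 groups of 4 embryos examined over the 33 genes, 1 embryo stood far from the other 3 by Dixon's test, and chance alone gives about 1 in 20. All 3 were wild-type embryo 3. Emcn was at 14.96 CPM there, against 22.54 to 23.45 CPM in the other wild-type embryos. Apln was at 26.63 CPM, against 13.69 to 15.65 CPM. Its receptor Aplnr was at 91.53 CPM, against 46.78 to 51.89 CPM. The low Emcn value lay within the knockout range, and the high Apln and Aplnr values lay above every knockout embryo.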

How the results depend on the processing

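Among the 32 genes besides Esm1, no member was called in either direction under any alternative that kept all 8 embryos, and leaving out 1 embryo gave 0 to 1 called lower and 0 to 1 called higher, both without wild-type embryo 3 (Emcn and Apln), where the genes called in all rose from 137 to 490. The count past the study's thresholds was 1 (Robo4) with library totals in place of TMM, and 0 to 2 with 1 embryo left out. The log2 fold change of Esm1 was 0.49 with limma on log2(RPKM + 1) and 1.59 on log2(RPKM + 0.1), where the pseudocount shrinks a gene of this level by construction, and 2.06 to 2.48 with 1 embryo left out. Its ratio to the pan-endothelial genes differed by 2.08 to 2.69 on the same basis. The medians ran from -0.23 to -0.012 for the endothelial and from -0.37 to 0.084 for the haemogenic genes. Near Isl1, 1 gene was called by DESeq2 (Dhx29) and 0 to 1 with 1 embryo left out (Fst, without wild-type embryo 3), and none within 10 Mb.

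Of 270 values of 15 genes named with tests under 18 alternatives, 18 changed sign, none of them called. Gata5 was called under all 18 (edgeR adjusted p = 0.0496 without wild-type embryos 1 and 2). Angpt1, besides the losses given above for single embryos, was not called with limma on log2(RPKM + 1) (adjusted p = 0.0654) or log2(RPKM + 0.1) (adjusted p = 0.0615), with the replicate block (edgeR adjusted p = 0.104) or without wild-type embryos 1 and 2 (edgeR adjusted p = 0.342). Lyl1 was at 0.011 and Egfl7 at 0.022 with library totals, 0.0042 and 0.028 with log2(RPKM + 1), and 0.0046 and 0.029 with log2(RPKM + 0.1). With 1 embryo left out the ranges that crossed 0 were -0.18 to 0.034 (Lyl1), -0.10 to 0.048 (Egfl7), -0.21 to 0.20 (Tal1), -0.67 to 0.33 (Runx1) and -0.011 to 0.36 (Aplnr). Aplnr was at -0.15 without wild-type embryos 1 and 2. Without crossing 0, Kdr ran from -0.24 to -0.020, Etv2 from -0.49 to -0.24 and Gata2 from -0.52 to -0.26, and Nfatc1 was at -0.26 with the longest transcript entry. The cause was not tested.

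Replicate numbers are shared between genotypes in the labels but did not pair the embryos (r = 0.11, 0.21, 0.086 and 0.51 for numbers 1 to 4). Of the 4 wild-type embryos, 1 was closest to the knockout embryo of its own number. With the replicate block no member was called, and 76 genes were called in all, against 137.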
